A study of Homo sapiens with 12 samples.

Results

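H1299 is a human non-small cell lung cancer line grown from a lymph node metastasis. It is described here across its 3 states, parental cells, tumor-initiating cells (TICs) and TICs with knockdown of PRKCI. The 3 libraries were chosen by their column names in the raw count table, out of 12 libraries in all (4 cell lines, 3 states, 1 library each). The other 3 lines are H1703, CHAGO and CALU, and the series treats all 4 as lung squamous cell carcinoma lines. Parental cells are labelled as adherent cells. The labels give TICs as tumor-initiating cells derived from the line and the knockdown library as TICs in which PRKCI was knocked down. No state carries any other genotype or treatment in the labels. How TICs were selected and grown, how the knockdown was made, and whether parental and TIC libraries carry a control construct are not stated in the sources used here. Growth form, passage and library preparation therefore cannot be told apart from the state.

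PRKCI encodes the atypical protein kinase C iota, which acts with the polarity proteins PAR3 and PAR6 and lies in a region of chromosome arm 3q that is often amplified in squamous lung tumors, together with SOX2 and ECT2. Hedgehog ligands are palmitoylated by the acyltransferase HHAT, bind the receptor PTCH1 and so release SMO, after which GLI transcription factors switch on targets that include GLI1 and PTCH1 themselves. Type I interferon acts through JAK kinases on STAT factors and IRF9, which together bind a short promoter element before interferon-stimulated genes such as those of the OAS, IFIT and MX families.

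The H1299 libraries held 36060810 (parental), 28134160 (TIC) and 21165030 (knockdown) reads assigned to genes, against 22408673 to 91763055 in the other 9. Levels are given as CPM, read counts relative to the TMM-scaled size of the library. Differences are on the log2 CPM scale with a prior count of 2. Each state has 1 library, so no difference within H1299 has a replicate check and none was tested. The 95% intervals given with folds are exact Poisson intervals that cover counting error only. Where a library had 0 reads, the fold is a lower bound against 3 reads, which is 0.0780 CPM in parental cells, 0.0969 in TICs and 0.132 in knockdown TICs. Levels are compared within a gene only, since no gene lengths were used.

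How far single libraries differ depended on the level of the gene. Between TICs and parental cells 60.8% of the 3906 genes with a mean of 1 to 10 CPM differed by 2-fold or more, against 19.9% of the 1122 genes above 200 CPM. Between knockdown TICs and TICs the same shares were 57.4% and 2.94%. Low counts also switched between 0 and clear levels: 42 genes had no read in the parental library while exceeding 10 CPM in another H1299 library, and 17 genes did so in TICs and 12 in knockdown TICs. Genes with few reads are therefore named below with their reads.

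**Figure D1:**
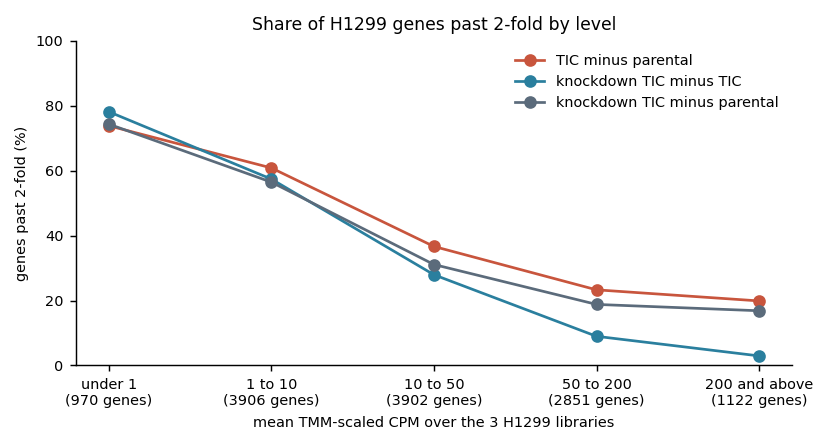
Share of genes (percent, vertical axis) that differed by 2-fold or more between H1299 libraries, in classes of mean level (CPM over the 3 libraries, horizontal axis, with the number of genes), with 1 line of points per comparison. The share drops with level in each comparison, from 73.8% to 19.9% for TICs against parental cells and from 78.1% to 2.94% for knockdown TICs against TICs.

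PRKCI, the targeted gene, had 11895 reads in parental cells, 6160 in TICs and 585 in knockdown TICs, or 309, 199 and 25.8 CPM. The knockdown library was thus the lowest of the 3, as its label says, 7.70-fold below TICs (interval 7.08 to 8.40). TICs were 1.56-fold below parental cells (interval 1.51 to 1.60). PRKCZ, the other atypical protein kinase C, was at 12.1, 6.13 and 11.7 CPM. PRKCZ was thus higher in knockdown TICs than in TICs, and no higher than in parental cells. ECT2, a guanine nucleotide exchange factor needed for cell division and a partner of PRKCI in lung tumors, was at 606 CPM in parental cells, 168 in TICs and 281 in knockdown TICs. Its log2 difference between TICs and parental cells was −1.85.

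Cell type genes were examined in the 3 libraries. They describe the kind of cell and cannot tell H1299 from another line of similar levels. In H1703, 19 to 21 of the 31 listed epithelial and squamous genes had 0 reads in each library, against 17 or 18 in H1299. VIM, an intermediate filament protein of mesenchymal cells, was at 1480, 1464 and 1134 CPM in the parental, TIC and knockdown libraries, and ZEB1, a repressor of epithelial genes, at 179, 230 and 314 CPM. CDH1, which encodes E-cadherin, the squamous keratin genes KRT5 and KRT14 and the lung lineage factor NKX2-1 had 0 reads in all 3 libraries. TP63, the squamous lineage factor, had 0, 0 and 3 reads. Other genes of the epithelial and squamous list had reads: of 31 genes 15 were at 0 in all 3 libraries and 10 reached 1 CPM, and the list summed to 555, 411 and 606 CPM, against 449 to 6831 CPM in the 9 libraries of the other lines. KRT15, a basal keratin, had 9, 176 and 20 reads, and CLDN1, a tight junction protein, was at 337, 79.5 and 252 CPM. Of 18 leukocyte markers 12 had no read in any of the 3 libraries, PTPRC (CD45) among them, and CD68, a lysosomal protein that tumor cells also make, gave nearly all of their summed level of 264, 531 and 523 CPM. Endothelial markers summed to 1.92, 1.45 and 4.55 CPM with 6 of 12 at 0 in all 3 libraries. Fibroblast and muscle markers summed to 27.2, 5.52 and 13.8 CPM with 3 of 13 at 0, and lung alveolar and airway markers to 0.0260, 1.49 and 0.441 CPM with 13 of 15 at 0. In bulk RNA, a lower share of cells with a transcript and less transcript per cell cannot be told apart.

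The first comparison asked how H1299 TICs differ from the parental cells. Interferon-stimulated genes were far higher in TICs: 46 of 48 measured genes were at least 2-fold higher, none was 2-fold lower, and their median log2 difference was 4.79. Genes of cell division, amino acid supply and ribosome assembly were lower, with 30 of 37 genes of G2 phase and mitosis, 25 of 35 genes of the ATF4 response and 19 of 26 genes of ribosome biogenesis at least 2-fold lower. Also higher in TICs were 16 of 33 genes of hypoxia and glycolysis and 8 of 17 mesenchymal genes. Among all 12751 genes kept (at least 1 CPM in 1 of the 3 libraries), 2852 were at least 2-fold higher in TICs (22.4%) and 2557 at least 2-fold lower (20.1%), which is the background against which each list is read. The median of all genes moves by 0.44 with the authors' mode-normalized values, which turn the split of calls from 52.7% higher into 71.6% higher. Differences are therefore relative to the scaling, and no list median past 2-fold changed sign under it.

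Promoters of 4 interferon-stimulated genes are shown because all 4 genes were among those with clearly higher counts in TICs and because they share a motif. The sequences are the 250 bases before the annotated start, from RefSeq GRCh38.p14, on the gene's strand and 5′ to 3′, while the counts were made on another build and were matched by symbol. Capitals mark matches to GAAA, 2 bases of any kind and GAAA again, the core of the interferon-stimulated response element, or to its reverse complement (TTTC, 2 bases and TTTC), and the long capital run in ISG15 holds 2 overlapping matches. OAS3 is at chr12:112938224-112938473, IFIT1 at chr10:89392373-89392622, ISG15 at chr1:1013247-1013496 and IFI27 at chr14:94110486-94110735, all on the plus strand.
OAS3: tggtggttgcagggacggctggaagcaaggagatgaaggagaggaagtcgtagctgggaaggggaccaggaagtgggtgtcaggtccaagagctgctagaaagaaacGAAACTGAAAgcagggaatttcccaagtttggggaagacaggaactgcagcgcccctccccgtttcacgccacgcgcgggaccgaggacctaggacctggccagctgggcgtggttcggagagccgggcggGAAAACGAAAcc
IFIT1: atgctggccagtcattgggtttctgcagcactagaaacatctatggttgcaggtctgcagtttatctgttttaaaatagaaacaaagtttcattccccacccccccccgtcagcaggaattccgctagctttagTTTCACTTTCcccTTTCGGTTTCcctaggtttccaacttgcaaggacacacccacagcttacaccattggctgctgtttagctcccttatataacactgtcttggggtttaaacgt
ISG15: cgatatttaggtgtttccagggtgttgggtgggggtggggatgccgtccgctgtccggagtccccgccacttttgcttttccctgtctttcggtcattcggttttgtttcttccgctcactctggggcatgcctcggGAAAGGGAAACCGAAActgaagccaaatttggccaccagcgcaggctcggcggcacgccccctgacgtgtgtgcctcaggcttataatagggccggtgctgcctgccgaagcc
IFI27: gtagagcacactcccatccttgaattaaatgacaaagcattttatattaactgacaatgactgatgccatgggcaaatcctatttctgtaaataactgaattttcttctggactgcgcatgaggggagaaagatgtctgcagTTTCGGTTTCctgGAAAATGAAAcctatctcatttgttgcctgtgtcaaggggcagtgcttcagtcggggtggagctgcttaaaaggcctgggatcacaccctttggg
The motif was found on either strand in 25 of the 41 matched promoters of the 50 listed genes (61.0%), against 839 of all 27305 promoters of that length (3.07%) and 1 of 26 promoters of the ATF4 list (3.85%). A match describes these letters and is not a measured binding site.

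OAS3, which makes the second messenger that activates RNase L, had 1257 reads in parental cells, 10024 in TICs and 13345 in knockdown TICs, or 32.7, 324 and 589 CPM. TICs were 9.90-fold above parental cells (interval 9.34 to 10.5). IFIT1, which binds viral RNA caps, was at 3.22, 244 and 494 CPM, 75.7-fold higher in TICs (interval 63.4 to 91.1). ISG15, a ubiquitin-like modifier, had 18, 314 and 379 reads and was 21.7-fold higher in TICs (interval 13.5 to 37.0). The low state was the parental library in each of these genes, and both TIC libraries lay well above it. IFI27, a mitochondrial interferon-induced protein, had 0 reads in parental cells, 1030 in TICs and 1035 in knockdown TICs, at least 426-fold higher in TICs. OAS2, OAS1 and IFI44L also had no parental read. OAS2 had 3250 reads in TICs and 3952 in knockdown TICs, at least 1345-fold higher in TICs, and IFI44L had 2315 and 4586, at least 958-fold higher. IFI6, which inhibits replication of flaviviruses, was at 7.72, 685 and 786 CPM. Of the 50 listed genes 15 had 0 reads in parental cells, 1 in TICs and 4 in knockdown TICs, and with such genes set to their bound the median log2 difference was 4.35. The IFIT genes form a family of related sequences, and whether any reads were assigned to the wrong member was not checked.

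**Figure D2:**
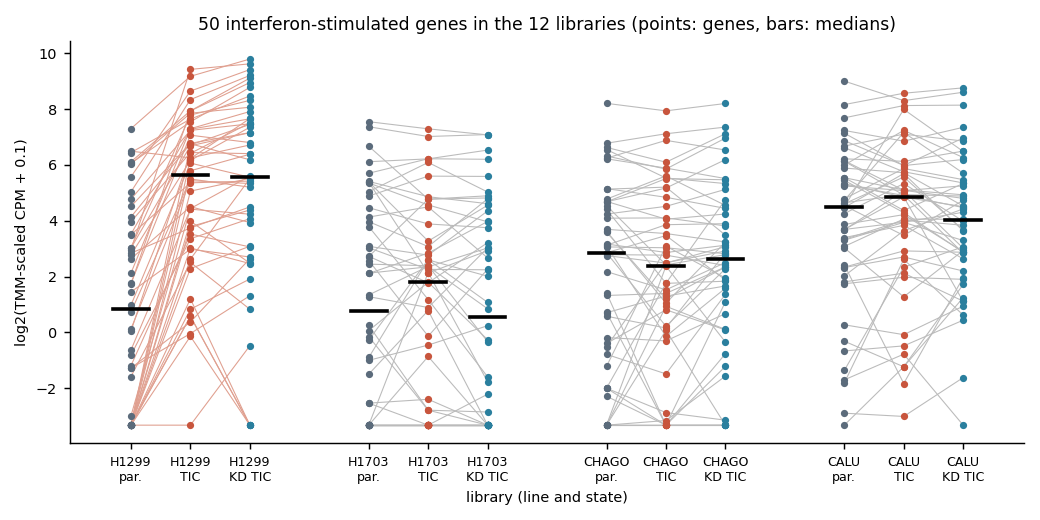
Level of the 50 interferon-stimulated genes (log2 of TMM-scaled CPM plus a pseudocount of 0.1, vertical axis) in each of the 12 libraries (horizontal axis, by line and state); points are genes, thin lines join a gene within a line, and thick bars are medians. In H1299 the median level was 1.72 CPM in parental cells, 50.1 in TICs and 47.7 in knockdown TICs, and the lowest row of points holds genes with 0 reads.

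Genes of interferon signalling itself were the next list examined. Of 19 measured interferons, receptors and STAT or IRF factors, 8 were at least 2-fold higher in TICs, with a median log2 difference of 0.92. IRF9, the DNA-binding partner of STAT factors, was at 2.70, 18.6 and 25.3 CPM. No transcript of IFNB1, IFNA1 or IL29 was found in TICs, although IFNB1 had 25 reads in knockdown TICs after 0 in both others. The list also holds the interferon genes IL28A, IL28B, IFNE, IFNK and IFNG. Their reads are not given here, so nothing is said of interferon transcripts in general. IFNAR1, a subunit of the type I receptor, was at 86.3, 135 and 154 CPM, and so differed by less than 2-fold in each comparison. Cytosolic nucleic acid sensors were higher in 7 of 15 and lower in 2 of 15. DDX58 (RIG-I) was at 42.3, 308 and 455 CPM, 7.29-fold higher in TICs, and IFIH1 (MDA5) at 118, 642 and 1018 CPM, 5.43-fold higher.

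Antigen presentation genes were higher in TICs in 13 of 19 measured members and 2-fold lower in none, with a median log2 difference of 1.90. B2M, the light chain of class I molecules, was at 176, 926 and 983 CPM, HLA-B, a class I heavy chain, at 24.9, 135 and 197 CPM, and PSMB9, a subunit of the immunoproteasome, at 4.03, 41.7 and 44.5 CPM. Reads of HLA genes may be misassigned, since these genes are polymorphic and alike. Chemokine and NF-κB target genes were higher in 8 of 18 and lower in 1. CCL5, a chemokine that attracts T cells, had 0 reads in parental cells, 167 in TICs and 116 in knockdown TICs. ICAM1, an adhesion molecule for leukocytes, was at 7.02, 20.4 and 70.1 CPM.

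Cell cycle genes were lower in TICs. Of 35 genes of G1/S and DNA replication 24 were at least 2-fold lower and none 2-fold higher, with a median log2 difference of −1.55. Of 37 genes of G2 phase and mitosis 30 were lower and none higher, with a median of −1.46. PCNA, the sliding clamp of DNA polymerase, was at 41.8 CPM in parental cells, 6.75 in TICs and 19.7 in knockdown TICs, 6.20-fold lower in TICs (interval 5.36 to 7.19). The knockdown library lay between the others. MCM10, a replication initiation factor, was at 57.2, 7.78 and 21.2 CPM. CCNA2, which encodes cyclin A2, was at 206, 37.5 and 74.8 CPM and CDC25C, a phosphatase that triggers mitosis, at 18.3, 2.23 and 13.4 CPM. All 4 were named for a large fall in TICs and were lowest there, with knockdown TICs in between. Of the 35 G1/S genes 22 were lowest in TICs and 13 in knockdown TICs. For the 37 genes of G2 and mitosis these counts were 26 and 11. Histone genes of the clusters were lower in 19 of 36 and higher in 1, although many of their transcripts lack poly(A) tails and near copies share reads. CDKN1A, which encodes the inhibitor p21, was at 31.5, 99.5 and 153 CPM and so ran the other way, as did CDKN1B (p27) at 49.5, 119 and 73.5 CPM.

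Genes of the ATF4 response, which raise amino acid uptake and synthesis, were lower in 25 of 35 and higher in 3, with a median log2 difference of −1.54. ASNS, asparagine synthetase, had 44438 reads in parental cells, 5431 in TICs and 6282 in knockdown TICs, or 1156, 175 and 277 CPM, 6.59-fold lower in TICs (interval 6.41 to 6.78). SLC7A5, a transporter of large neutral amino acids, was at 137, 7.17 and 26.9 CPM, 19.1-fold lower in TICs (interval 16.7 to 22.0). PHGDH, the first enzyme of serine synthesis, was at 33.6, 1.78 and 2.60 CPM, and PCK2, a mitochondrial PEP carboxykinase, at 62.7, 2.65 and 21.6 CPM. The exceptions included NUPR1, a stress-induced nuclear protein, at 5.72, 62.1 and 63.8 CPM, and DDIT3 (CHOP) differed little at 37.7, 30.6 and 42.0 CPM. Unfolded protein response genes, a neighbouring stress program, were 2-fold higher in 3 of 22 and 2-fold lower in none. The promoter of ASNS is shown because it carries the motif by which ATF4 is known to act, in the 250 bases before the start at chr7:97872409-97872658 on the minus strand (RefSeq GRCh38.p14), with the match to TGATG, any base and AA in capitals.
ASNS: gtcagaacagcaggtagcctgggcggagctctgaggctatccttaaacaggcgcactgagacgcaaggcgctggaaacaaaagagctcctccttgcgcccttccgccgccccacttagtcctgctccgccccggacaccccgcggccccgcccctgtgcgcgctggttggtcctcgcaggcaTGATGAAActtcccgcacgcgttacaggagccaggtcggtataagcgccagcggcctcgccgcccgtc
That motif was found on either strand in 3 of the 26 matched promoters of the 35 listed genes (11.5%; ASNS, ATF3 and CHAC1), against 870 of 27305 promoters (3.19%) and 1 of 41 interferon-stimulated genes (2.44%).

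Ribosome biogenesis genes were lower in 19 of 26 and higher in none, with a median log2 difference of −1.44, or −0.98 with the mode-normalized values. DKC1, the pseudouridine synthase of box H/ACA particles, was at 587, 147 and 221 CPM, and NPM1 (nucleophosmin), a nucleolar chaperone, at 3033, 985 and 1272 CPM. MYC, a transcription factor that drives such genes in many cells, was at 91.7, 19.2 and 23.8 CPM, 4.78-fold lower in TICs (interval 4.38 to 5.23). Oxidative phosphorylation genes, in contrast, were 2-fold lower in 1 of 30 and 2-fold higher in none, with a median of −0.12, which the mode-normalized values turn to 0.34.

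Targets of the coactivator YAP and its TEAD partners were lower in 14 of 25 and higher in 1, with a median log2 difference of −1.08, or −0.62 with the mode-normalized values. CYR61, a matricellular protein, was at 560, 41.6 and 42.8 CPM, 13.5-fold lower in TICs (interval 12.7 to 14.2), and CTGF, of the same family, at 267, 16.2 and 6.75 CPM. ANKRD1, a nuclear ankyrin repeat protein, had 2050 reads in parental cells, 7 in TICs and 2 in knockdown TICs. Both TIC libraries were thus far below the parental one for these targets. WWC1 (KIBRA), an upstream regulator of the same pathway and a binding partner of atypical protein kinase C, was at 2621, 124 and 817 reads. Immediate early and MAPK-induced genes were mixed, higher in 7 of 30 and lower in 5. FOS, a subunit of the AP-1 factor, had 7, 2359 and 1466 reads, and EGR1, a zinc finger factor of the same early response, was at 37.6, 209 and 203 CPM.

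Genes of the hypoxia response and glycolysis were higher in TICs in 16 of 33 and lower in 2, with a median log2 difference of 0.98, and 26 of 33 were at their highest level of the 3 libraries in TICs. GPI, which converts glucose 6-phosphate to fructose 6-phosphate, had 12314 reads in parental cells, 56086 in TICs and 9138 in knockdown TICs, or 320, 1811 and 403 CPM. It was 5.65-fold higher in TICs than in parental cells (interval 5.55 to 5.77) and 4.49-fold lower in knockdown TICs than in TICs (interval 4.39 to 4.59). ENO2, a neuronal enolase, was at 10.4, 204 and 68.9 CPM, and HK2, a hexokinase, at 143, 441 and 146 CPM. SLC2A1 (GLUT1) was at 38.5, 88.4 and 24.5 CPM and LDHA, lactate dehydrogenase A, at 907, 1318 and 613 CPM. CA9, carbonic anhydrase IX and a classic hypoxia target, had 131 reads in TICs and 0 in both other libraries. PFKFB3, which makes an activator of glycolysis, ran the other way at 16.5, 1.94 and 31.1 CPM. TICs were the highest library for GPI, ENO2, HK2, SLC2A1, LDHA and CA9.

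Mesenchymal genes were higher in TICs in 8 of 17 and lower in 2, with a median log2 difference of 0.78. FN1 (fibronectin) was at 23.5, 216 and 79.8 CPM, 9.19-fold higher in TICs (interval 8.57 to 9.86), and TNC, the matrix protein tenascin C, at 48, 1737 and 340 reads. MMP2, a gelatinase, had 0, 1041 and 390 reads, and SPARC, a collagen-binding matrix protein, 2, 408 and 421. Neuronal and neuroendocrine genes were higher in 11 of 18 and lower in 1, with a median of 1.96. MAP2, a microtubule-associated protein of dendrites, was at 5.15, 206 and 191 CPM, and GAP43, of growing axons, had 0, 327 and 424 reads, while STMN2, of the same process, had 0, 162 and 0. A last list was built around KLHL24 and IDS because earlier results of these data named them, and mixes lysosomal genes with FOXO targets and others. Of its members 20 of 29 were higher and none lower, with a median of 1.41, which describes genes chosen for that pattern and supports nothing further. KLHL24, a ubiquitin ligase adaptor, was at 98.5, 366 and 260 CPM, and IDS, a lysosomal sulfatase with a near copy in the genome, at 57.1, 231 and 177 CPM.

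Genes of the Hedgehog pathway, which the series title names, were higher in TICs in 9 of 20 measured members and lower in 2, with a median log2 difference of 0.81. The list also holds PRKCI and SOX2, and without them 8 of 18 were higher and 2 lower. None of the 3 libraries had a read of the ligand SHH. HHAT, the ligand acyltransferase, was at 18.5 CPM in parental cells, 71.0 in TICs and 20.3 in knockdown TICs, 3.83-fold higher in TICs (interval 3.52 to 4.17). The receptor PTCH1 was at 38.0, 72.2 and 22.2 CPM and SMO at 3.43, 5.55 and 1.85 CPM, differences of less than 2-fold between TICs and parental cells. GLI1, a target as well as a factor of the pathway, had 31 reads in TICs and 0 in both others, at least 12.8-fold higher in TICs than in parental cells. GLI2 had 1, 0 and 15 reads, too few in TICs for a fold, and GLI3, which is mostly a repressor, was at 10.3, 33.1 and 28.8 CPM. The coreceptor BOC had 0, 267 and 114 reads. SOX2, a stem cell and squamous lineage factor on 3q, was at 8.09 CPM in parental cells, 38.8 in TICs and 6.09 in knockdown TICs, 4.80-fold higher in TICs (interval 4.23 to 5.45).

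**Figure D3:**
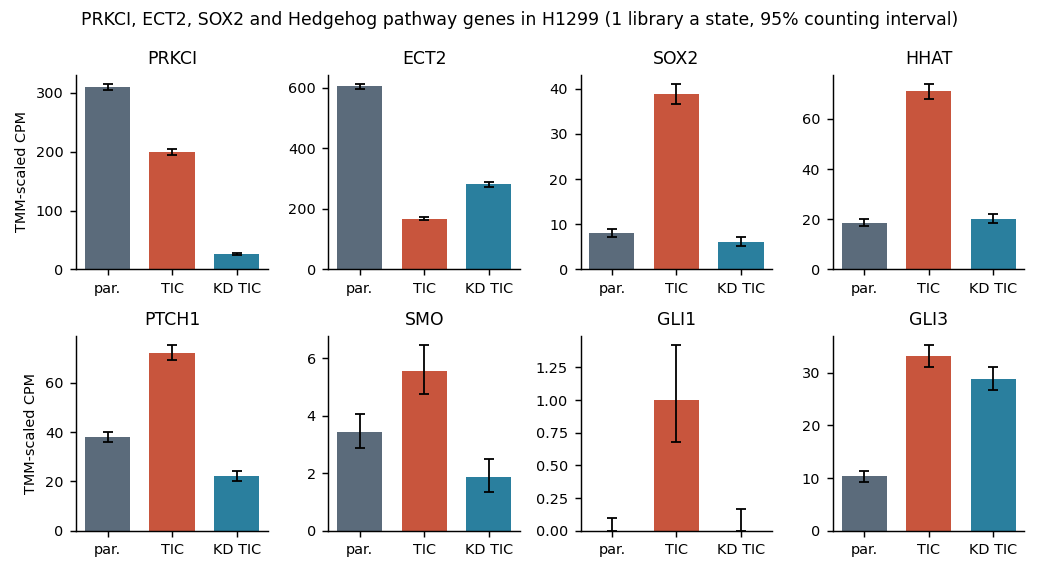
Level (TMM-scaled CPM, vertical axis from 0, own scale per gene) of PRKCI, ECT2, SOX2 and 5 Hedgehog genes in the parental, TIC and knockdown TIC library of H1299; bars are single libraries and whiskers 95% Poisson intervals for counting error only. HHAT and SOX2 are highest in TICs, at 71.0 and 38.8 CPM, while PRKCI is lowest after knockdown at 25.8 CPM.

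Other lists were mixed between TICs and parental cells. Matrix metalloproteinases and their inhibitors were higher in 10 of 17 and lower in 4, with a median log2 difference of 1.86, which was 0.89 with no filter on low levels. Stem cell and TIC markers were higher in 4 of 12 and lower in 1, epithelial and squamous genes higher in 3 of 10 and lower in 3, and cholesterol synthesis genes higher in 2 of 27 and lower in 3. CDK inhibitors and D cyclins were higher in 5 of 20 and lower in 2, and atypical PKC and polarity genes higher in 2 of 15 and lower in 2, which is near the background of 22.4% and 20.1%.

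Single genes with the largest differences mostly had no read in 1 library. LMO3, a LIM-domain cofactor of neuronal cells, had 0 reads in parental cells, 842 in TICs and 233 in knockdown TICs, at least 348-fold higher in TICs. NPAS3, a neuronal transcription factor, had 0, 905 and 2 reads. On the other side AQP3, a channel for water and glycerol, had 898, 0 and 2 reads, at least 241-fold lower in TICs, and MYH11, smooth muscle myosin, 827, 2 and 1. MYH11 also stands in the fibroblast and muscle marker list, of which it carries most of the parental sum.

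The second comparison asked how H1299 TICs with PRKCI knockdown differ from TICs without it. Interferon-stimulated genes were mostly near or above TIC levels, 12 of 33 glycolysis and hypoxia genes were at least 2-fold lower than in TICs, and 9 of 35 ATF4 response genes at least 2-fold higher. Fewer genes differed than between TICs and parental cells: 2065 of 12751 were at least 2-fold higher in knockdown TICs (16.2%) and 2314 at least 2-fold lower (18.1%). These counts share the TIC library with the first comparison, so a value of that library enters both with opposite sign and the 2 comparisons are not independent.

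Of 48 interferon-stimulated genes 11 were higher and 5 lower in knockdown TICs, against backgrounds of 16.2% and 18.1%, with a median log2 difference of 0.46. Summed over the 50 genes the level was 785 CPM in parental cells, 5180 in TICs and 7893 in knockdown TICs, and 773 to 2753 CPM in the 9 libraries of the other lines. Members ran both ways. The lower ones were led by MX2, a dynamin-like GTPase, with 0, 68 and 0 reads, and included OASL, a relative of the OAS enzymes, with 0, 487 and 124 reads, 2.87-fold lower than in TICs (interval 2.35 to 3.53). Of the higher ones, XAF1, a proapoptotic interferon target, had 0, 188 and 1029 reads, 7.48-fold higher in knockdown TICs than in TICs. IFI44L was 2.71-fold higher (interval 2.58 to 2.85) and OAS3 1.82-fold (1.77 to 1.87). Chemokine and NF-κB genes were higher in 7 of 18 and lower in 4. TNFSF10 (TRAIL), a death ligand, had 0, 18 and 249 reads, 18.9-fold higher than in TICs (interval 11.7 to 32.4), and ICAM1 was 3.43-fold higher (3.13 to 3.77). BIRC3, an NF-κB-induced inhibitor of apoptosis, was at 200, 137 and 443 CPM.

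Genes of hypoxia and glycolysis were lower in knockdown TICs in 12 of 33 and higher in 3, with a median log2 difference of −0.79, so 36.4% of the list against 18.1% of all genes. GPI differed by −2.17, SLC2A1 by −1.85, HK2 by −1.59, ENO2 by −1.56 and LDHA by −1.11 on the log2 scale. The 3 higher genes were EGLN3, a prolyl hydroxylase of HIF factors, with 2, 0 and 75 reads, PFKFB3, with a log2 difference of 3.98, and PFKFB4, a relative of PFKFB3, with 3, 117 and 308 reads. Knockdown TICs lay near the parental level in GPI and HK2, above it in ENO2 and below it in SLC2A1 and LDHA. Since TICs were highest in 26 of 33 genes of the list, both comparisons of the list rest on the same TIC library.

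Hedgehog genes were lower in 7 of 20 and higher in 3, with a median log2 difference of −0.69. PRKCI, whose knockdown fixes its direction, and SOX2 are among the 7. Without them 5 of 18 were lower and 3 higher, with a median of −0.51. Among all genes kept 18.1% were lower and 16.2% higher, so the higher share of the list was near the background. HHAT was 3.50-fold lower in knockdown TICs than in TICs (interval 3.16 to 3.87), and PTCH1 3.25-fold lower (2.95 to 3.59). SMO differed by −1.56 on the log2 scale and rests on 172 reads in TICs and 42 after knockdown. GLI1 was at least 7.56-fold lower, on 31 and 0 reads, while GLI3 differed by −0.20 on the log2 scale. SOX2 was 6.37-fold lower than in TICs (interval 5.34 to 7.65). Among genes of atypical PKC and polarity 1 of 15 was higher and 3 lower, PRKCI included. The higher one was WWC1, 9.01-fold above TICs (interval 7.45 to 11.0).

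The cell cycle lists differed little from TICs: 6 of 35 genes of G1/S were higher and 3 lower, and 4 of 37 genes of G2 and mitosis were higher and 1 lower, shares near or under the backgrounds. PCNA, MCM10 and CDC25C were among those higher, with log2 differences of 1.54, 1.44 and 2.57. Histone genes were lower in 11 of 36 and higher in 4. HIST1H4H, a histone H4 gene, was at 410, 179 and 67.5 CPM. ATF4 response genes were higher in 9 of 35 and lower in 1, with a median log2 difference of 0.54, and PCK2 was 8.17-fold and SLC7A5 3.76-fold above TICs. Cholesterol synthesis genes were higher in 5 of 27 and lower in 1, and the higher share of 18.5% was near the 16.2% of all genes. FDPS, farnesyl diphosphate synthase, was at 129, 51.2 and 133 CPM, IDI1, which makes its substrate, at 201, 166 and 421 CPM, and HMGCS1, which acts before HMG-CoA reductase, at 258, 230 and 518 CPM. Knockdown TICs were the highest library for these 3 enzymes, by little in FDPS.

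Among the largest single differences, SCN4A, a sodium channel of muscle, had 503 reads in knockdown TICs and 0 in both other libraries. PLK1S1, a centrosomal protein, had 341 reads in parental cells, 0 in TICs and 324 in knockdown TICs, so the TIC library alone was without reads. HOXD9, a homeobox factor, had 88, 716 and 4 reads, and NPAS3, which had 905 reads in TICs, had 2 in knockdown TICs.

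**Figure D4:**
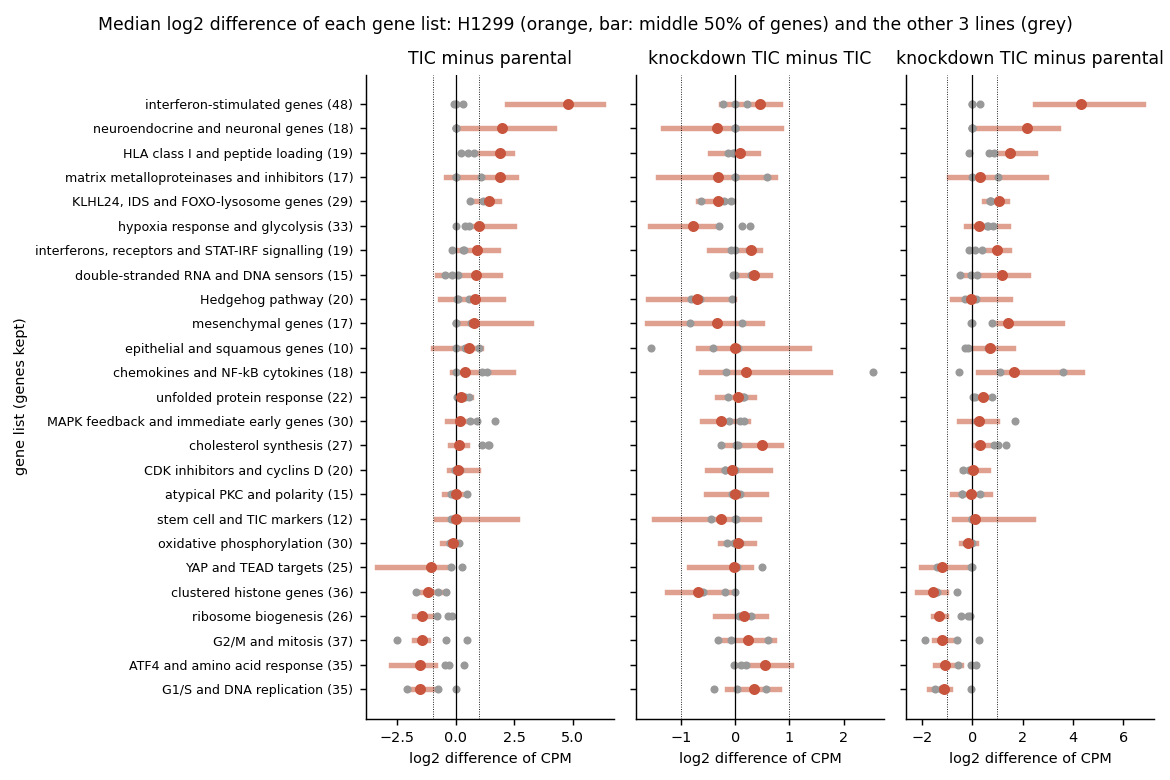
Median log2 difference of CPM (horizontal axis, 1 panel per comparison) of the gene lists (vertical axis, with the number of genes kept in H1299); large orange points are H1299 with a bar for its middle 50% of genes, grey points the other 3 lines, and dotted lines 2-fold. Interferon-stimulated genes stand far right for H1299 in both comparisons with parental cells (4.79 and 4.32), and at 0.46 for knockdown TICs against TICs.

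The third comparison sets knockdown TICs against parental cells, and so shares a library with each of the others. In all, 2517 of 12751 genes were at least 2-fold higher (19.7%) and 2347 at least 2-fold lower (18.4%). With the mode-normalized values the share of higher among these calls goes from 51.7% to 66.2%, with a shift of 0.29 in the median of all genes. Interferon-stimulated genes were higher in 44 of 48 and lower in none (median log2 difference 4.32), and antigen presentation genes had a median of 1.51. Mesenchymal genes were higher in 11 of 17 and lower in 1, and chemokine and NF-κB genes higher in 11 of 18 and lower in 2 (1.65, or 0.58 over the genes that pass edgeR's expression filter). Genes of mitosis were lower in 25 of 37, of G1/S in 21 of 35 and of the histone clusters in 28 of 36, with 1 histone gene higher. ATF4 response genes were lower in 19 of 35 and higher in 3, and ribosome biogenesis genes lower in 21 of 26 and higher in 1. The Hedgehog list was balanced, with 6 of 20 higher and 4 lower and a median of −0.06, or 6 and 3 of 18 without PRKCI and SOX2. The log2 difference of PRKCI from parental cells was −3.58. HHAT was at 1.09 times the parental level (interval 0.972 to 1.23) and SOX2 1.33-fold lower (1.08 to 1.63).

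**Figure D5:**
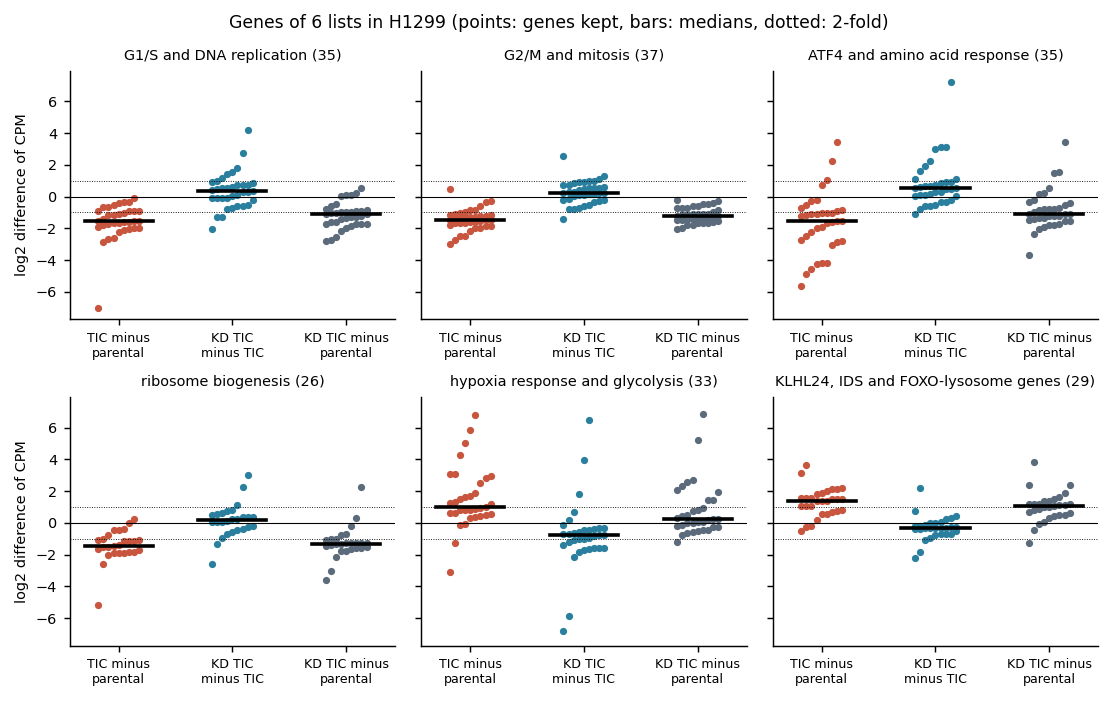
Log2 difference of CPM (vertical axis) of each gene of 6 lists in H1299, for the 3 comparisons (horizontal axis); points are genes kept, thick bars medians and dotted lines 2-fold. Genes of mitosis and ribosome biogenesis lie mostly below 0 in both comparisons with parental cells (medians −1.46 and −1.44 in TICs), while glycolysis genes lie mostly above 0 in TICs against parental cells and mostly below 0 in knockdown TICs against TICs (0.98 and −0.79).

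Whether H1299 departed from the other lines was tested with edgeR's quasi-likelihood model on all 12 libraries, in terms that let H1299 have its own TIC and knockdown differences. The 3 H1299 libraries are then fitted exactly, and the spread comes only from the other 3 lines (4 residual degrees of freedom, a common dispersion of 0.448). At an adjusted p of 0.05 edgeR called 0 of 14008 genes (0%) for TICs against parental cells, 0 (0%) for knockdown TICs against TICs and 0 (0%) for knockdown TICs against parental cells. At an unadjusted p under 0.05 there were 876 (6.25%), 563 (4.02%) and 734 (5.24%), where uniform p-values would give 700.4. The smallest adjusted p values were 0.361, 0.407 and 0.142. DESeq2's Wald test called 166, 74 and 90 genes and limma voom 0 in each. In simulated counts of the same dispersion, a change of 6 in log2 units in H1299 alone was recovered by edgeR in 0 of 50 genes in each comparison with parental cells. So 0 calls do not show that H1299 was like the other lines. DESeq2 was not run on the simulated counts, so its rate of false calls was not checked.

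Of the 26 lists other than markers of other cells, interferon-stimulated genes had the widest gap between H1299 and the nearest other line, over the 48 of 50 genes kept for their level in H1299. Their median log2 difference between TICs and parental cells was 4.79 in H1299, against 0.00 in H1703, −0.08 in CHAGO and 0.31 in CALU. Counts of list members by p-value in this paragraph are descriptive and are no test of a list. All members share the same single H1299 libraries, and the lists were chosen with earlier results of these data known. Of 49 tested genes 30 had an unadjusted edgeR p under 0.05, all higher in H1299, against 6.25% of all genes, and DESeq2 called 16 of them, all higher. For knockdown TICs against TICs 2 of 49 had an unadjusted p under 0.05 and DESeq2 called 0. OAS3 departed by 4.57 on the log2 scale, at an adjusted p of 0.361 in edgeR. Its standard error was 0.55, taken as the departure divided by the square root of edgeR's F. ATF4 response genes had a median of −1.54 in H1299 against −0.30, 0.36 and −0.48 in H1703, CHAGO and CALU, with 16 of 35 at an unadjusted p under 0.05. Cholesterol synthesis genes had a median of 0.11 in H1299 against 1.13, 1.36 and 1.42, with 10 of 27 at an unadjusted p under 0.05 and none of those higher in H1299. FDPS differed by −1.33 in H1299 and by 1.13, 1.64 and 1.13 in H1703, CHAGO and CALU, at an edgeR adjusted p of 0.493. GPI departed by 2.53 in TICs against parental cells (edgeR adjusted p = 0.493) and by −2.06 in knockdown TICs against TICs (edgeR adjusted p = 1).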

How the data were processed

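Of 12 RNA-seq libraries, the 3 of H1299 were described and the other 9 served as background and in a test of departure. Per the labels' protocols, a Qiagen RNeasy kit gave the RNA and a NuGEN kit the libraries. CASAVA 1.4, TopHat 1.4, HTSeq 0.5.3p3 and build hg19 are named in the submitters' processing notes, without their roles, and use of strand in the counting is not given in the sources used here. Per the file headers, the authors deposited raw counts, whole numbers of reads for each gene and library. A second table deposited by the authors holds mode-normalized values, a score that equals the count times 1 factor per library, rounded, in all 22506 genes within 1. Of these genes 4044 had no read and 26 symbols had become dates and were left as they stand. The design text also names a knockdown in parental cells, not analysed here.

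Counts were scaled with TMM factors of edgeR 4.0.16 (R 4.3.3) over the 14008 genes that passed filterByExpr. Within H1299, genes at 1 CPM or more in at least 1 library were kept, log2 CPM used a prior count of 2, and a difference of 1 on the log2 scale counts as past 2-fold. The departure of H1299 was tested with edgeR's quasi-likelihood test (robust, two-sided, Benjamini-Hochberg adjustment over all genes) with terms for line, state and H1299's own TIC and knockdown differences. Line is the pairing: after removal of state means, correlations across genes were 0.553 to 0.760 within a line (12 pairs) and between lines −0.414 to −0.0601 (36 pairs). Removing state means pulls correlations between lines below 0 when those within a line are above 0. The range between lines is therefore no separate evidence. The test was tested on simulated counts (4 sets of 50 changed genes): for both comparisons with parental cells it recovered 0 of 50 at each size at the real dispersion, and 50 of 50 at a dispersion of 0.02, with 11 false calls for TICs and 7 for knockdown TICs among 13972 genes. For knockdown TICs against TICs no change was simulated, so recovery there was not tested. Alternatives were other scalings, filters, prior counts and folds, DESeq2 1.42.0, limma 3.58.1 voom, no line term, each line left out and fits on 8 libraries. The Hedgehog list without PRKCI and SOX2 was added after seeing the data.

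The gene lists and members were chosen with earlier results of these data known. Named genes are PRKCI, SOX2, ECT2 and the Hedgehog genes, the 12 largest differences each way with at least 10 CPM, per list up to 6 members past 2-fold and up to 3 of the highest level, and the 10 smallest p per test. IFIT1, ISG15, IFNB1, IFNA1, IL29, CA9, MX2, EGLN3, HK2, DDIT3 and PRKCZ lie outside that rule and were chosen after their values were seen. So were the cell type genes given for the H1299 libraries and the motif matches. Of the list symbols 799 matched as written, 11 by a synonym and 2 not at all. Promoters were matched by symbol. Some results are not reported here. Replicates within a state do not exist in H1299, and nothing in the labels says how the lines' libraries were batched.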

Additional observations from a re-analysis of the deposited data

Results flagged for a closer look

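For each list and comparison the medians of the 4 lines were set side by side. The same was done for the differences of the single genes PRKCI, SOX2, HHAT, PTCH1, SMO, GLI1, GLI3 and ECT2. A line was singled out where its gap to the nearest line, divided by the range of the 4 values, exceeded Dixon's 95% critical value. Chance gives about 1 in 20 groups, and of 102 checked 10 were flagged. The groups share libraries and are not independent, so that rate is only a rough guide. Interferon-stimulated genes stood apart in H1299 for TICs against parental cells (median log2 difference 4.79, nearest line 0.31) and for knockdown TICs against parental cells (4.32, nearest 0.31). Genes were kept for reaching 1 CPM in an H1299 library, so a list that the other lines hardly express has medians near 0 there whatever its genes do. This bears on the interferon-stimulated genes as well: of the 50 listed, 15 to 18 had 0 reads in each H1703 library. In CHAGO it was 5 to 7 and in CALU 0 or 1. How far the filter shaped that gap was not tested. For the same reason the next values describe H1299 only and show no departure from the other lines. Neuronal and neuroendocrine genes were at 1.96 for TICs against parental cells, −0.34 for knockdown TICs against TICs and 2.16 for knockdown TICs against parental cells, with 11 to 17 of the 25 listed genes at 0 reads in each library of the other lines. Stem cell and TIC markers were at 0.12 for knockdown TICs against parental cells. Outside H1299, chemokine and NF-κB genes stood at 2.54 in CALU and YAP and TEAD targets at 0.49 in CHAGO for knockdown TICs against TICs. MAPK and immediate early genes stood at 1.68 in CHAGO and GLI1 at −1.29 in H1703 for knockdown TICs against parental cells, where H1299, CHAGO and CALU had no GLI1 read in either library. These differences between lines were not tested beyond that comparison.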

How the results depend on the processing

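No list median past 2-fold and no named gene past 2-fold changed sign under any alternative. Medians near 0 did, among them those of oxidative phosphorylation, polarity genes and, for knockdown TICs, matrix metalloproteinases. Between TICs and parental cells 5409 genes were past 2-fold, 4379 between knockdown TICs and TICs and 4864 between knockdown TICs and parental cells. At 4-fold these were 2437, 2002 and 2035, and a filter of at least 5 CPM left 2731 between knockdown TICs and TICs. Of 26 gene lists 11 had a median past 2-fold between TICs and parental cells, 9 to 13 under the other settings and 1 past 4-fold. In the test of departure, DESeq2 called 166, 74 and 90 genes where edgeR called 0, limma voom called 0, and the counts ran from 0 to 0 with a line left out. The replicate block here is the line: with it and with no replicate block edgeR called 0 genes in each comparison, and at an unadjusted p under 0.05 there were 150, 141 and 118 genes without it. Single libraries limit what can be said of genes of few reads, and no alternative replaces a second library of a state.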
